A study of Mus musculus with 12 samples.

Results

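A deposited expression table of 12 columns is described here, in which 4 columns labelled normal diet were set against 8 columns labelled vitamin D-deficient diet. These are all 12 samples of the series, and the sets follow their diet labels. The contrast was taken up with earlier results known. In those the normal diet columns matched no scanned channel and looked like ovary. Each column was labelled as pituitary RNA of 1 female C57BL/6J mouse aged 2 months. There were 4 mice on a normal diet, 4 that lacked vitamin D in early life and 4 that lacked it at the peripubertal stage, and the last 8 were taken as 1 set. The series text calls the mice of a group biological replicates. RNA was hybridised to 6 Agilent mouse arrays in 2 colours, with 2 mice of 1 group per array, odd-numbered mice in Cy3 and even-numbered mice in Cy5.

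The 4 columns labelled normal diet went against their tissue label. Each of the 8 deficient columns equalled the brightness of a scanned pituitary channel within 1e-06 on the log2 scale, although in every case that channel was filed under the other deficient group. The 4 normal diet columns equalled none of the 12 scanned channels, and their highest correlation with any of them was 0.869 to 0.893 over spots. Among themselves the normal diet columns correlated at 0.977 to 0.989. The deficient columns correlated at 0.959 to 0.985 with the 4 channels scanned for the normal diet mice, and the normal diet columns at 0.858 to 0.893 with the same channels. All columns share 1 array design, so these correlations are descriptions. Rows were joined rightly in the normal diet columns too, since repeat spots of 1 probe correlated at 0.990 to 0.995 there. Tissue source, diet and hybridisation change together between the sets and cannot be told apart, so no difference below is a measured effect of diet.

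The anterior pituitary holds endocrine cell types that are each defined by the hormone they store: growth hormone, prolactin, corticotropin, thyrotropin or the gonadotropins. The ovary answers the gonadotropins. Its follicles hold an oocyte, which builds the zona pellucida, among granulosa cells that make estrogen, inhibin and activin, while theca and luteal cells turn cholesterol into androgens and progesterone.

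Values are log2 spot brightness over the median of the column, so 0 is the median spot, and dim or missing spots were set to a floor of 0.17. A gene at the floor in every column of 1 set has only a bound there, and its fold is given as at least the ratio of the other set's mean to the floor. Such a bound holds for the probe that was read, and other probes of a gene can differ by less. Differences are log2 normal diet minus deficient columns from limma, with p-values adjusted (Benjamini-Hochberg) across the 15393 genes tested, and a gene was called higher or lower at an adjusted p under 0.05. A gene was tested where it exceeded the column median in at least 4 of 12 columns. Each SD is over columns of both dyes without adjustment for dye, so it holds any offset between the dyes. The SEs come from fits with a dye term. Genes named after their values or their dimness were seen, outside the naming rule given with the processing, are Akr1b7, Areg, Bmp4, Cpe, Cyp11b1, Cyp11b2, Cyp17a1, Cyp19a1, Cyp24a1, Cyp27b1, Drd2, Ereg, Esr1, Figla, Foxl2, Gapdh, Gc, Has2, Hhip, Idi1, Kctd14, Krt18, Mag, Mbp, Mc2r, Mog, Nr0b1, Nr5a1, Parm1, Por, Pou1f1, Prss29, Ptgfr, Ptgs2, Ptx3, Star, Tnfaip6, Zp1 and Zp2.

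The tissue markers split the columns completely. These and the oocyte, Gh and Prl markers below were fixed with the ovary-like look of the normal diet columns already known. Their p-values therefore describe a known split and are no separate support for it. Cyp11a1, which starts steroid synthesis by cleaving the side chain of cholesterol, read 9.58, 8.13, 9.28 and 7.86 in normal diet columns 1 to 4 and the floor in all 8 deficient columns. Its mean of 8.71 ± 0.84 (SD, n = 4) was at least 373-fold higher, a difference of 8.54 (SE 0.30) with an adjusted p of 5.15e-11 in limma. The Cy3 columns 1 and 3 read above the Cy5 columns 2 and 4, so that SD is not spread between mice alone. Hsd3b1, which makes progesterone from pregnenolone, read 9.46, 8.23, 9.79 and 8.41 and was at least 445-fold higher. The sets did not overlap for either gene. In the mm9 coordinates of the array files the probes lie at chr9:57874074-57874544 and chr3:98656127-98656186.

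The oocyte markers split the columns in the same way. Zp3, a sperm-binding protein of the zona pellucida, read 5.46, 4.32, 5.41 and 3.67 in the normal diet columns and was at least 23.3-fold higher. Gdf9, an oocyte growth factor that acts on granulosa cells, read 6.54, 5.76, 5.70 and 4.23 and was at least 41.8-fold higher. Both were at the floor in all 8 deficient columns. Their probes lie at chr5:136464281-136464340 and chr11:53251307-53251366 (mm9).

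The pituitary markers ran the other way. Gh, growth hormone of the somatotrophs, was at the floor in all 4 normal diet columns and ranged from 9.47 to 10.31 in the deficient columns, with a median of 9.90. Prl, prolactin of the lactotrophs, was also at the floor in all 4 and ranged from 8.93 to 10.40, with a median of 9.78. They were at least 863-fold and at least 767-fold lower, with limma adjusted p of 9.3e-14 and 6.51e-12. The probes lie at chr11:106162492-106162735 and chr13:27156972-27157031 (mm9). In the channels scanned for the normal diet mice, Gh ranged from 9.94 to 10.24 and Prl from 9.27 to 10.07, and Cyp11a1, Hsd3b1, Zp3 and Gdf9 were at the floor in all 4.

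**Figure D1:**
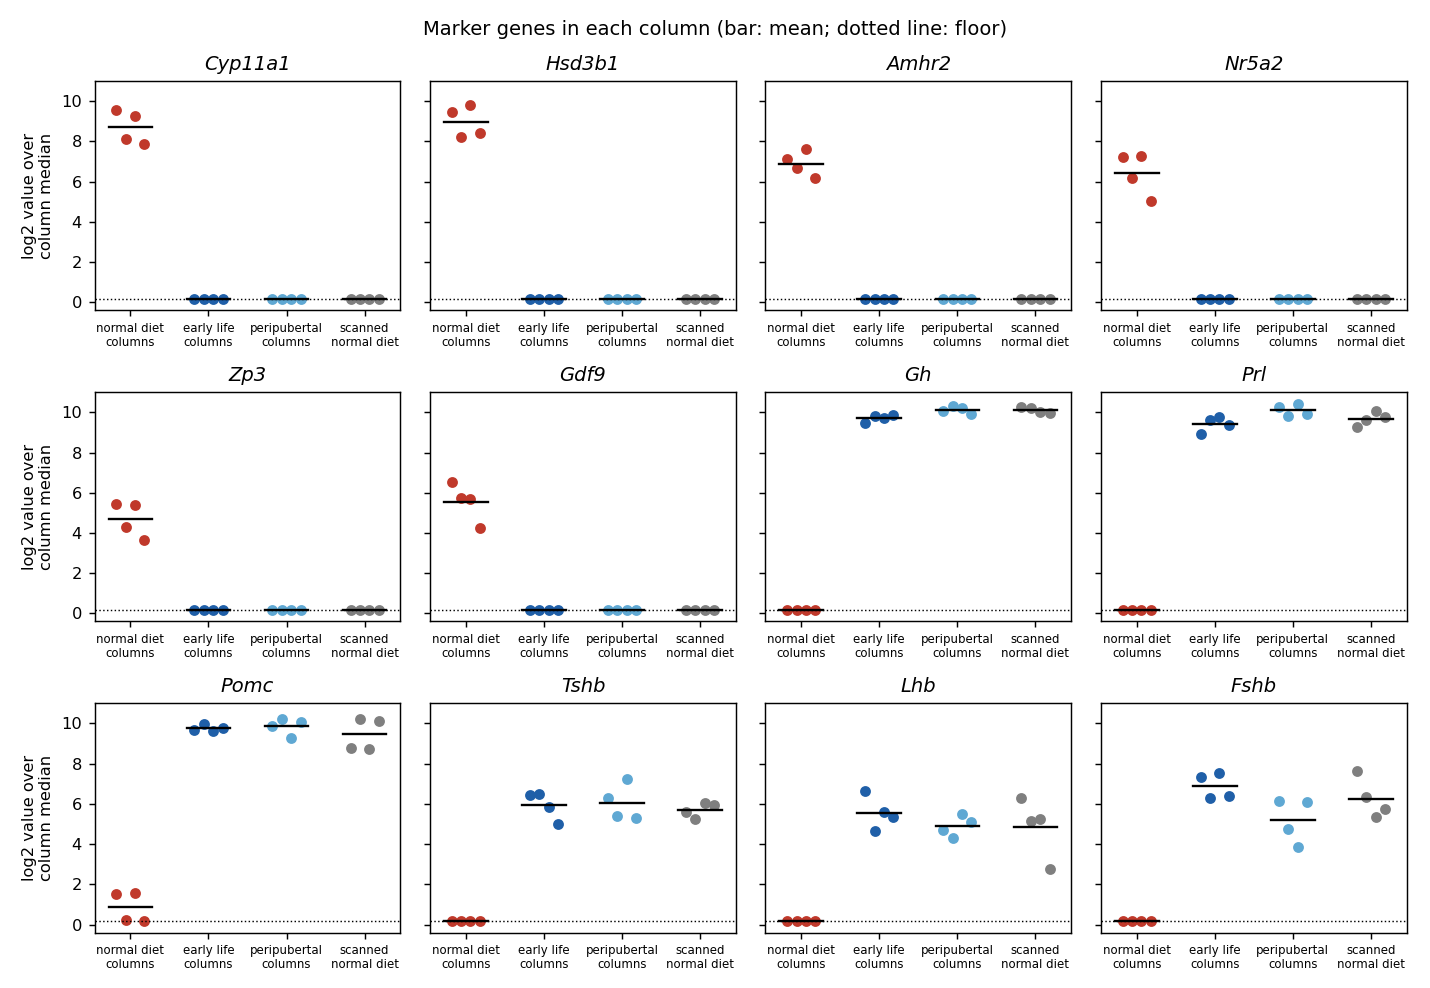
Log2 value over the column median (vertical axis) of 12 marker genes in the normal diet, early life and peripubertal columns and in the scanned normal diet channels (4 points each), with bars at the means and a dotted line at the floor of 0.17. Cyp11a1, Hsd3b1, Zp3 and Gdf9 lie at the floor outside the normal diet columns, and Gh and Prl lie at the floor inside them.

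Across all genes the contrast was broad. Of 15393 genes, 4362 were called higher in the normal diet columns (28.3%) and 2905 lower (18.9%), and the median difference over all genes was 0.12. Differences of at least 2 log2 units were called for 776 higher genes (5.04%) and 702 lower genes (4.56%). The columns of the sets did not overlap for 1397 genes with higher values (9.08%) and 1215 with lower values (7.89%). Among called genes, 384 of the higher ones were at the floor in every deficient column and 578 of the lower ones were at the floor in every normal diet column. At the other end 7205 genes differed by under 0.5 log2 units.

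The balance of directions depended on how columns were centred. Higher genes made up 60.0% of those called, against 48.6% with columns centred on their 75th percentile and 49.1% with quantile normalization. Those scalings moved the median of all genes from 0.12 to -0.04 and -0.01. Every gene list below whose median is over 1 log2 unit in size kept the sign of that median under both scalings. The counts of each list stand beside 28.3% higher and 18.9% lower over all genes.

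A similar split appeared where the diet label did not differ. Against the 4 channels scanned for the normal diet mice, limma called 5429 of 15323 genes higher in the normal diet columns (35.4%) and 3361 lower (21.9%), 57.4% in either direction against 47.2% in the first comparison. Differences of at least 2 log2 units were called for 827 higher genes (5.4%) and 641 lower genes (4.18%). This comparison shares its normal diet columns with the first. Its fit took the array as a random block with a correlation of -0.214, against 0.317 in the first. With no array block, 4860 genes were higher and 2962 lower here, against 4984 and 3363 in the first. Which comparison had the larger share called therefore depended on the block. With the scanned channels in place of the normal diet columns, limma called 0 of 14995 genes against the 8 deficient columns (0%), and 505 had an unadjusted p under 0.05.

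**Figure D2:**
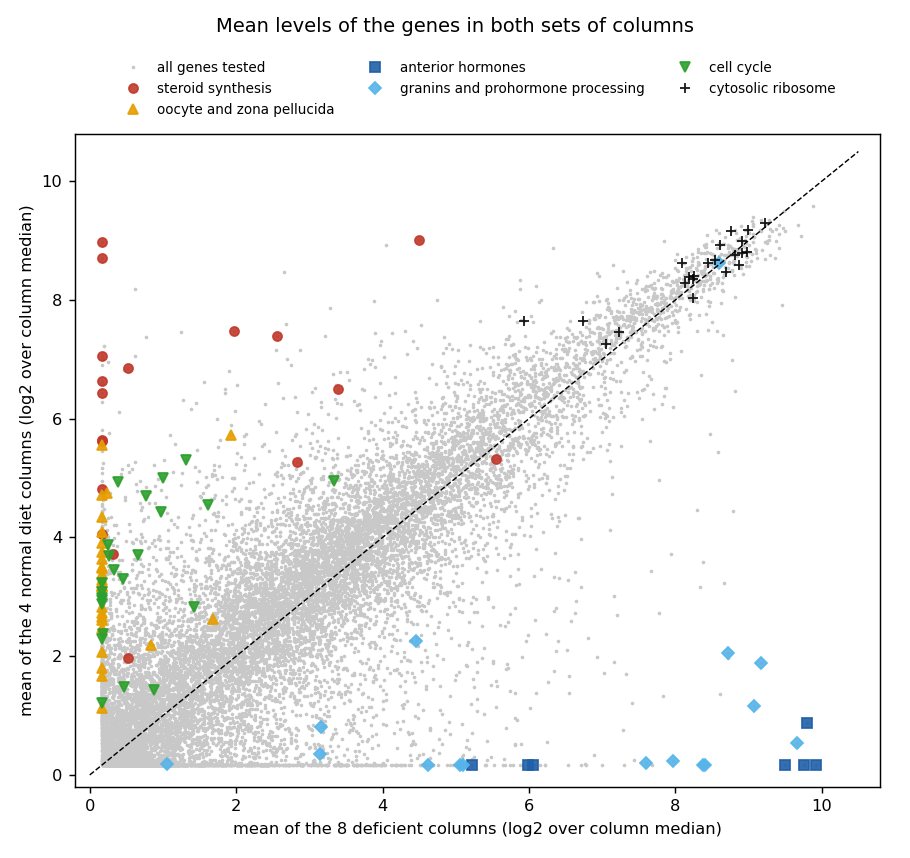
Mean log2 value over the column median of every gene tested in the 8 deficient columns (horizontal axis) and the 4 normal diet columns (vertical axis), each point a gene, with 6 gene lists coloured and a dashed line of equality. Cyp11a1 and Hsd3b1 lie at the floor horizontally and above 8 vertically, and Gh and Prl lie at the floor vertically and above 9 horizontally.

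Large differences beyond the markers ran both ways. After Hsd3b1 and Cyp11a1 the largest positive ones belonged to Sfrp4, a secreted WNT inhibitor, at 7.56 (SE 0.50), and Mgarp, a mitochondrial protein of steroid-making cells, at 7.03 (SE 0.44). Hsd3b6, a close relative of Hsd3b1 whose transcripts may share its probes, followed at 6.89 (SE 0.35). Acsbg1, an acyl-CoA synthetase, differed by 6.82 and S100a4, a calcium-binding protein, by 6.36. Smoc2, a matrix protein, differed by 6.22 and Cst8, a cystatin, by 6.44. On the lower side, Ly6h differed by -7.24, Gucy2d, a guanylate cyclase, by -7.18 and Resp18, a protein of endocrine secretory granules, by -7.13.

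Steroid synthesis was the ovarian list with the largest median. All 18 genes on the array passed the filter, 9 through the normal diet columns alone, and 17 were higher and none was lower, with a median difference of 5.14. A gene that passed through 1 set alone did not exceed the column median in the other, so the filter favoured its direction. Not every such gene was called. Over all genes 28.3% were higher with a median of 0.12. Star, which carries cholesterol into mitochondria, read 7.68, 5.04, 5.90 and 3.86 in the normal diet columns and the floor in all 8 deficient columns. Akr1c18, which inactivates progesterone, was at least 88.7-fold higher, and Cyp19a1, the aromatase that makes estrogen, at least 14.8-fold higher. Fdx1, the ferredoxin that serves mitochondrial P450 enzymes, was present in both sets, at 9.01 ± 0.74 against 4.49 ± 0.52 (SD, n = 4 and 8). Cyp17a1, which makes androgens, stood at 5.26 ± 0.89 against 2.83 ± 0.97 (SD, n = 4 and 8), and the sets overlapped. Por, the electron donor of microsomal P450 enzymes, was the member not called, at -0.22 (SE 0.27).

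Granulosa cell genes were also higher. All 19 genes on the array passed the filter, 7 through the normal diet columns alone, and 17 were higher and none was lower, with a median difference of 3.40. Amhr2, the receptor of anti-Mullerian hormone, read 7.14, 6.67, 7.61 and 6.17 in the normal diet columns and was at least 106-fold higher. Inhba, an activin and inhibin subunit, read 7.75, 8.15, 7.29 and 6.30 against a range of 0.17 to 2.19 in the deficient columns. Fst, which binds activin, was at least 69.3-fold higher. Nr5a2, a nuclear receptor of ovarian steroid cells, read 7.24, 6.16, 7.28 and 5.02 and was at least 76.4-fold higher by its brightest probe. Another Nr5a2 probe that passed the filter differed by only 1.77.

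Foxl2 and Nr5a1 act in both glands. Foxl2, a transcription factor of granulosa cells and gonadotrophs, ranged from 5.29 to 7.67 in the normal diet columns and from 4.96 to 6.16 in the deficient columns, which overlap. Nr5a1, which drives steroid genes in the gonad and gonadotropin genes in the pituitary, ranged from 5.97 to 7.23 against 2.60 to 4.31, without overlap. Nr0b1 and Kctd14 were the granulosa members not called, at 0.57 (SE 0.24) and -0.34 (SE 0.29).

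The theca and luteal lists share Cyp11a1, Star, Hsd3b1 and other members with the steroid list. Among theca genes, all 11 genes on the array passed the filter, 4 through the normal diet columns alone, and 10 were higher and none was lower, with a median difference of 2.43. Ephx2, an epoxide hydrolase, differed by 6.70 (SE 0.26), and Aldh1a1, which makes retinoic acid, stood at 8.93 ± 0.57 against 4.04 ± 0.50 (SD, n = 4 and 8). Among luteal genes, all 15 genes on the array passed the filter, 6 through the normal diet columns alone, and 14 were higher and none was lower, with a median difference of 3.61. Lhcgr, the receptor through which luteinizing hormone acts, read 4.69, 2.90, 3.73 and 2.19 in the normal diet columns and was at least 9.23-fold higher. Ptgfr, the prostaglandin receptor through which the corpus luteum regresses, was at least 41.1-fold higher. Hhip of the theca list and Parm1 of the luteal list were not called, at 0.64 and -0.65.

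Most oocyte genes that passed did so through the normal diet columns alone. Of 44 genes on the array 28 passed the filter, 23 through the normal diet columns alone, and 27 were higher and none was lower, with a median difference of 3.04. Without the filter 40 had a value, 31 of them higher and none lower, with a median of 2.47. Zar1, which acts at the start of embryo development, read 5.25, 4.05, 4.89 and 3.21 in the normal diet columns and was at least 18.1-fold higher. H1f8, the linker histone of oocytes, read 5.54, 4.48, 5.49 and 3.48, and 1 deficient column left the floor, at 0.70. Zp1 and Zp2, further zona proteins, differed by 3.21 and 3.00. Germ line and meiosis genes were mostly dim in both sets: of 16 on the array 2 passed, Tex14, at least 3.20-fold higher, and Rec8, a meiotic cohesin, with a difference of -2.25 (SE 0.44).

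The ovulation and cumulus list was mixed. Of 17 genes on the array 8 passed the filter, 1 through the normal diet columns alone and 1 through the deficient columns alone, and 5 were higher and 1 was lower, with a median difference of 1.17. Adamts1, a protease that acts on versican, differed by 2.40 (SE 0.44). Vcan, versican itself, stood at 3.19 ± 0.31 against 0.17 ± 0.01 (SD, n = 4 and 8), but its probes disagreed. With 75th percentile centring, quantile normalization, no floor or a floor set per column another probe was the brighter one and stood for the gene, with a difference of 0.36 to 0.53 that was not called (limma adjusted p = 0.0531 to 0.133). Kept to the first probe, the difference was 3.29 with the centring and 3.46 with quantile normalization. Snap25, a vesicle fusion protein that endocrine and nerve cells use, had a difference of -1.52. Ptgs2, Has2, Tnfaip6, Ptx3, Areg and Ereg, which the gonadotropin surge induces, did not pass the filter.

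Markers of neighbouring or related organs were examined beside the ovarian lists. In the adrenal cortex list, of 7 genes on the array 3 passed the filter, 1 through the normal diet columns alone and 1 through the deficient columns alone, and 1 was higher and 1 was lower. Cyp11b1, Cyp11b2, Akr1b7 and Mc2r did not pass, Mrap, a partner of the corticotropin receptor, was at least 23.6-fold higher and Cyp21a1, a 21-hydroxylase, had a difference of -0.79. In the testis list 4 of 12 genes passed and Dhh, a hedgehog ligand, was the 1 called, at least 17.0-fold higher. In the uterus list 4 of 11 passed and limma called 0 (the largest in size was Prss29 at -1.50, adjusted p = 0.0876). In the oviduct and ciliated cell list 7 of 13 passed and none was higher and 4 were lower, with Fam183b at 2.31 ± 0.43 against 6.80 ± 0.48 (SD, n = 4 and 8).

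Surface epithelium and fat genes were partly higher. For surface epithelium and mesothelium, of 13 genes on the array 11 passed the filter, 4 through the normal diet columns alone, and 6 were higher and 2 were lower, with a median difference of 0.99. Wt1, a transcription factor of the gonadal surface and granulosa cells, read 4.81, 4.56, 4.81 and 3.94 in the normal diet columns and was at least 20.5-fold higher. Msln, mesothelin, was at least 17.7-fold higher, and Krt18, a keratin of simple epithelia, had a difference of -2.30. For fat, of 11 genes on the array 8 passed the filter, 5 through the normal diet columns alone and 1 through the deficient columns alone, and 5 were higher and 1 was lower, with a median difference of 1.17. Cfd, adipsin, was at least 19.2-fold and Adipoq, adiponectin, at least 2.56-fold higher, whereas Cidea, a lipid droplet protein, was at least 45.1-fold lower. Most genes of the next 4 lists were too dim to test. In the liver list 5 of 14 genes on the array passed, and 3 were higher and none was lower. In the pancreas list 3 of 11 passed, and 1 was higher and 1 was lower. In the muscle list 4 of 14 passed, and 1 was higher and 1 was lower. In the skin list 4 of 11 passed, and none was higher and 2 were lower. With 75th percentile centring 3 fat genes were higher, 2 liver genes higher and 1 lower, 2 pancreas genes higher, and 2 adrenal and 1 uterus genes lower. What share of the RNA came from fat or mesothelium was not tested.

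**Figure D3:**
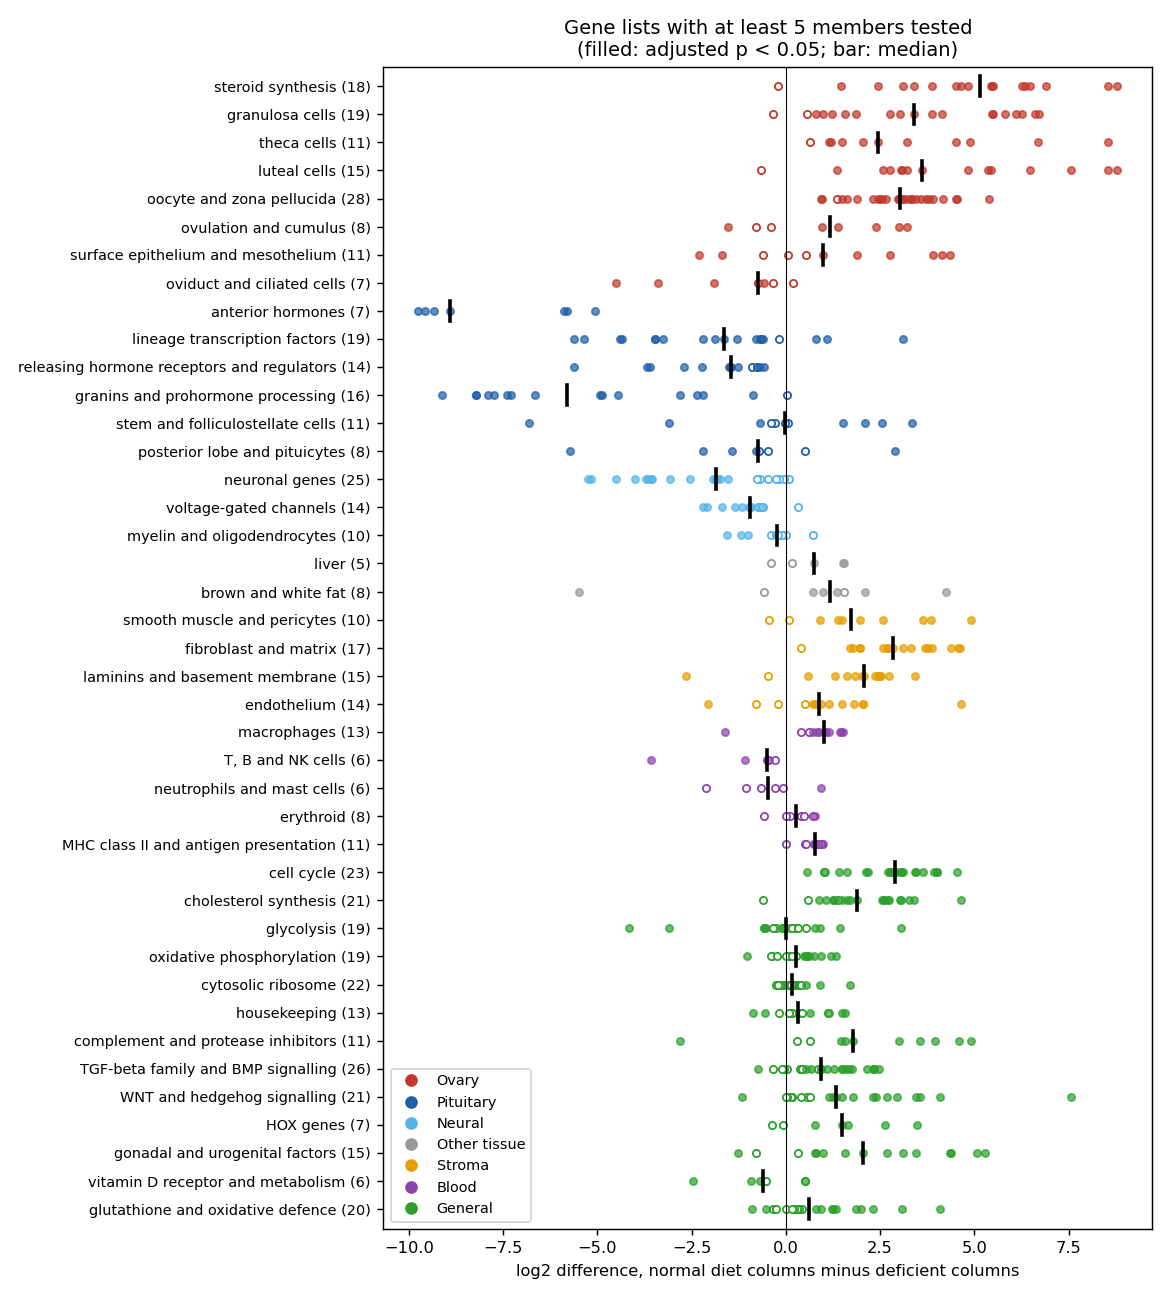
Log2 difference, normal diet minus deficient columns (horizontal axis), of each tested member of the gene lists with at least 5 tested members, filled where the adjusted p is under 0.05, with a bar at each median. Medians run from -8.92 for the anterior hormones to 5.14 for steroid synthesis.

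The hormones of the anterior lobe were all lower. All 7 genes on the array passed the filter, 6 through the deficient columns alone, and none was higher and 7 were lower, with a median difference of -8.92. Over all genes 18.9% were lower. In bulk RNA, fewer cells of a type and less RNA per cell cannot be told apart. Cga, the subunit that the glycoprotein hormones share, ranged from 9.15 to 9.74 in the deficient columns and was at least 644-fold lower. Pomc, precursor of corticotropin, ranged from 9.27 to 10.21 and was the 1 hormone above the floor in normal diet columns, which read 1.54, 0.25, 1.57 and 0.17. Tshb, a thyrotropin subunit, ranged from 4.98 to 7.22 and was at least 56.4-fold lower. Lhb and Fshb, the gonadotropin subunits, ranged from 4.29 to 6.66 and from 3.84 to 7.56, and were at least 33.3-fold and at least 58.9-fold lower.

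Upstream sequences of 4 genes from both sides of the contrast are shown because they hold the letters of motifs of POU1F1, the factor of somatotrophs and lactotrophs, of NR5A1, or of E-box factors such as the oocyte's FIGLA. They are the 250 bases before the annotated start, from RefSeq on GRCm38.p6, plus strand, at chr13:27057320-27057569 for Prl, chr7:45420696-45420945 for Lhb, chr15:102445117-102445366 for Amhr2 and chr5:135979855-135980104 for Zp3. Both strands were searched, and capitals mark TATNCAT (POU1F1) in Prl, CAAGGTCA (NR5A1) in Lhb and Amhr2, and the E-box CANNTG in Zp3.
Prl: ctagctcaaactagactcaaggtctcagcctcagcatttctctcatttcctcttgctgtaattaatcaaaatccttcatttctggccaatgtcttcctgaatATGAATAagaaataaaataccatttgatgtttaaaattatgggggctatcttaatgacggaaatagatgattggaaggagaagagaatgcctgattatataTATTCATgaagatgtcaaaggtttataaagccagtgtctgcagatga
Lhb: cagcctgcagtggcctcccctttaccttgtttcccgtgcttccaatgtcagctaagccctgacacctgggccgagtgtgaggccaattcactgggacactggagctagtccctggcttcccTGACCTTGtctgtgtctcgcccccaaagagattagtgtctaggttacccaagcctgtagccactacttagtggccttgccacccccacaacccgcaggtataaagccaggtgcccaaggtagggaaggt
Amhr2: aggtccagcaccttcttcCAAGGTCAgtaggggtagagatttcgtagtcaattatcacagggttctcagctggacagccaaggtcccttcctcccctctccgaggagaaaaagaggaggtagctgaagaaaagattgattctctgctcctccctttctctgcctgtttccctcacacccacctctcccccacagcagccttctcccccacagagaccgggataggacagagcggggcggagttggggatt
Zp3: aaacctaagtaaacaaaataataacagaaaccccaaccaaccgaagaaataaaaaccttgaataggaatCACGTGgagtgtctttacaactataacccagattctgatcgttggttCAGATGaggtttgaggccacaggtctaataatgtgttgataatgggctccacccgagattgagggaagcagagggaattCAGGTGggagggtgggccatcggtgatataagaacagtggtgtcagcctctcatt
Prl held 2 matches, from 148 to 142 bases before the start on the minus strand and from 47 to 41 on the plus strand. Lhb held 1 from 129 to 122 on the minus strand and Amhr2 1 from 232 to 225 on the plus strand, so the same letters stand upstream of a lower and a higher gene. Zp3 held 3, which began 181, 134 and 55 bases before the start, and the E-box reads alike on both strands. Of 32851 RefSeq windows of 250 bases, 7.92% held TATNCAT, 1.33% CAAGGTCA and 66.2% CANNTG. A match is a description of letters and binding was not measured. Figla itself, a member of the oocyte list, did not pass the filter.

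The machinery that packs and cuts peptide hormones was lower with the hormones. All 16 genes on the array passed the filter, 5 through the deficient columns alone, and none was higher and 15 were lower, with a median difference of -5.80. Chgb, a granin of dense-core granules, ranged from 9.24 to 10.09 in the deficient columns and read 0.36, 0.83, 0.78 and 0.17 in the normal diet columns. Pcsk2, a convertase that cuts prohormones, was at least 301-fold and Scg2, another granin, at least 296-fold lower. A dimmer Pcsk2 probe differed by -4.80. Pcsk1n, an inhibitor of the convertases, and Chga differed by -7.91 and -7.74. Cpe, which trims the cut peptides, was the member not called, at 8.05 to 9.47 in the normal diet columns and 8.08 to 9.05 in the deficient columns.

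Transcription factors of the hormone lineages were mostly lower. Of 24 genes on the array 19 passed the filter, 14 through the deficient columns alone, and 3 were higher and 14 were lower, with a median difference of -1.64. Pitx1, a homeobox factor of all anterior lineages, ranged from 5.29 to 6.47 in the deficient columns and was at least 49.0-fold lower. Lhx3, needed to form the gland, was at least 41.0-fold lower. Insm1, a factor of endocrine cells, differed by -4.40 (SE 0.31). Pou1f1 ranged from 0.34 to 3.10 in the deficient columns, and was at least 3.71-fold lower. The 3 higher members were Nr5a1, Foxl2 and Bmp4, a growth factor, at 3.11, 0.79 and 1.09. The adjusted p of Foxl2 in limma was 0.0379, and 0.0827 against the scanned channels, where 2 members were higher. With 75th percentile centring, quantile normalization or no floor 2 were higher and 15 lower.

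Receptors and local regulators of hormone release were lower where called. Of 18 genes on the array 14 passed the filter, 5 through the deficient columns alone, and none was higher and 12 were lower, with a median difference of -1.46. Gnrhr, the gonadotropin-releasing hormone receptor, was at least 12.9-fold and Ghrhr, the growth hormone-releasing hormone receptor, at least 6.52-fold lower. A dimmer Gnrhr probe differed by -1.66. Gal, galanin, ranged from 4.48 to 9.14 in the deficient columns and from 0.78 to 2.51 in the normal diet columns. Nmb, neuromedin B, differed by -3.59 (SE 0.40). Drd2, the dopamine receptor that restrains prolactin release, was at least 2.85-fold lower.

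Stem cell and posterior lobe lists held called genes of both directions. Over all genes 28.3% were higher and 18.9% lower, and the counts of the stem list lay near those shares. In the stem and folliculostellate list, of 13 genes on the array 11 passed the filter, 2 through the deficient columns alone, and 4 were higher and 3 were lower, with a median difference of -0.03. Cyp2f2, a cytochrome P450, was at least 114-fold lower, while Anxa1 and S100b, markers of folliculostellate cells also found elsewhere, differed by 3.34 (SE 0.53) and 2.56 (SE 0.48). In the posterior lobe list, of 12 genes on the array 8 passed the filter, 5 through the deficient columns alone, and 1 was higher and 4 were lower, with a median difference of -0.74. Oxt and Avp, the oxytocin and vasopressin precursors, were at least 53.1-fold and at least 4.58-fold lower, and Vim, an intermediate filament of stromal cells, differed by 2.89. Quantile normalization gave 2 posterior lobe genes higher. Of 11 hypothalamic peptide genes on the array 2 passed and Cartpt was at least 4.50-fold lower.

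Neuronal genes were lower in part. Of 26 genes on the array 25 passed the filter, 10 through the deficient columns alone, and none was higher and 16 were lower, with a median difference of -1.84. Syt1, the calcium sensor of vesicle release, ranged from 4.82 to 6.04 in the deficient columns and read 0.17, 0.17, 0.51 and 0.17 in the normal diet columns. Stmn3, a microtubule regulator, was at least 37.8-fold lower, and Syn1, a synaptic vesicle protein, differed by -4.01 (SE 0.25). Among voltage-gated channels, of 22 genes on the array 14 passed the filter, 4 through the deficient columns alone, and none was higher and 9 were lower, with a median difference of -0.95. Scn3a, a sodium channel, was at least 4.56-fold lower. Without spots that the scanner software marked as outliers that probe dropped out, and another probe of the gene gave -0.33 (limma adjusted p = 0.143). Among myelin genes, of 14 genes on the array 10 passed the filter, 1 through the deficient columns alone, and none was higher and 3 were lower, with a median difference of -0.25. Mbp, Mog and Mag, structural genes of myelin, were not called and differed by 0.01, -0.12 and -0.25.

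Genes of dividing cells were higher in the normal diet columns. Of 25 genes on the array 23 passed the filter, 6 through the normal diet columns alone, and 22 were higher and none was lower, with a median difference of 2.91. Mki67, a marker of dividing cells, stood at 5.00 ± 1.05 against 0.99 ± 0.77 (SD, n = 4 and 8). Birc5, a regulator of chromosome segregation, differed by 4.54 (SE 0.30), Mcm6 of the replication helicase by 4.00 (SE 0.29) and Cdc20, which starts anaphase, by 3.93 (SE 0.42). A dimmer Birc5 probe that passed the filter differed by 2.52.

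Cholesterol synthesis genes were higher too. Of 22 genes on the array 21 passed the filter, 1 through the normal diet columns alone, and 18 were higher and none was lower, with a median difference of 1.89. Hsd17b7, an enzyme of cholesterol and estrogen synthesis, read 7.69, 4.62, 4.23 and 2.69 in the normal diet columns and was at least 24.9-fold higher. Fdps, which makes farnesyl diphosphate, differed by 3.27 (SE 0.41).

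Stroma and matrix lists were higher. For fibroblasts, of 19 genes on the array 17 passed the filter and 16 were higher and none was lower, with a median difference of 2.85. Col3a1, a fibrillar collagen, read 7.30, 6.04, 8.61 and 6.68 in the normal diet columns against 1.88 to 3.51 in the deficient columns, and Tcf21, a factor of gonadal stroma, was at least 21.0-fold higher. For smooth muscle, of 13 genes on the array 10 passed the filter, 1 through the normal diet columns alone, and 8 were higher and none was lower, with a median difference of 1.73. Acta2, smooth muscle actin, read 7.18, 5.58, 7.59 and 6.83 in the normal diet columns against 1.06 to 3.28 in the deficient columns.

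Basement membrane and vessel genes were mostly higher. For basement membrane, of 16 genes on the array 15 passed the filter and 13 were higher and 1 was lower, with a median difference of 2.06. Lama1, a laminin chain, differed by 3.43 (SE 0.28). For endothelium, of 15 genes on the array 14 passed the filter, 1 through the normal diet columns alone, and 10 were higher and 1 was lower, with a median difference of 0.88. Cldn5, a tight junction protein, differed by 4.64 (SE 0.36), and Plvap, a protein of fenestrated vessels, by -2.06. The centring gave 7 endothelial genes higher and 2 lower.

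Developmental factors were mostly higher where called. For gonadal and urogenital factors, of 17 genes on the array 15 passed the filter, 4 through the normal diet columns alone and 1 through the deficient columns alone, and 12 were higher and 1 was lower, with a median difference of 2.04. Gata6 was at least 39.0-fold higher and Gata4, also a factor of gonadal somatic cells, differed by 5.08 (SE 0.27). Esr1, an estrogen receptor, was the 1 lower, at -1.26. For HOX genes, which pattern the trunk, of 20 genes on the array 7 passed the filter, 5 through the normal diet columns alone, and 5 were higher and none was lower, with a median difference of 1.48. Hoxc6 was at least 11.1-fold and Hoxd8 at least 6.22-fold higher.

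Signalling and complement genes were mostly higher where called. For WNT and hedgehog, of 27 genes on the array 21 passed the filter, 7 through the normal diet columns alone, and 13 were higher and 1 was lower, with a median difference of 1.32. Wnt4, which directs ovarian development, ranged from 4.05 to 6.07 against 0.17 to 4.31, so its sets overlapped, and differed by 3.44 (SE 0.59). For the TGF-beta family, of 27 genes on the array 26 passed the filter, 2 through the normal diet columns alone, and 16 were higher and 1 was lower, with a median difference of 0.93. Bmpr1b, a BMP receptor, was at least 5.09-fold higher. For complement and protease inhibitors, of 14 genes on the array 11 passed the filter, 1 through the normal diet columns alone, and 8 were higher and 1 was lower, with a median difference of 1.78. Serpina5 was at least 30.1-fold higher and C2, a complement protease, differed by 4.58 (SE 0.26).

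Blood cell lists differed in direction. For macrophages, of 14 genes on the array 13 passed the filter and 10 were higher and 1 was lower, with a median difference of 1.02. The count of higher macrophage genes was 6 with 75th percentile centring and with quantile normalization. For lymphocytes, of 12 genes on the array 6 passed the filter, 1 through the deficient columns alone, and none was higher and 3 were lower, with a median difference of -0.49. Both scalings gave 5 lower. Cd3e, a T cell receptor component, differed by -3.59 (SE 0.26). Of 8 erythroid genes tested 1 was called, Hemgn, at 0.78, and the 4 globin genes tested were not. Of 11 antigen presentation genes tested 3 were called higher, Psmb8, H2-D1 and H2-Eb1, and those calls were lost with 75th percentile centring (limma adjusted p = 0.1, 0.0779 and 0.141) and without normal diet column 3 (0.111, 0.114 and 0.152). In the neutrophil and mast cell list the mean log2 level was 5.30 in early life column 1 and 0.81 to 1.79 in the other 7 deficient columns, and Kit was the 1 gene called.

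Ribosome, housekeeping, glycolysis and oxidative phosphorylation lists had medians of at most 0.31 in size. For the cytosolic ribosome, all 22 genes on the array passed the filter and 3 were higher and none was lower, with a median difference of 0.15. That median turned to -0.01 with 75th percentile centring. For other housekeeping genes, all 13 genes on the array passed the filter and 4 were higher and 2 were lower, with a median difference of 0.31. For glycolysis, all 19 genes on the array passed the filter and 4 were higher and 5 were lower, with a median difference of -0.00. Enzyme forms separated there: Eno2, the neuronal enolase, differed by -4.16 (SE 0.23) and Ldhb, a lactate dehydrogenase subunit, by 3.06 (SE 0.20), while Gapdh ranged from 8.69 to 9.93 against 8.77 to 9.56. For oxidative phosphorylation, all 19 genes on the array passed the filter and 9 were higher and 1 was lower, with a median difference of 0.27. The centring gave 6 higher and 3 lower. For glutathione and oxidative defence, all 20 genes on the array passed the filter, 1 through the normal diet columns alone, and 10 were higher and 2 were lower, with a median difference of 0.61. Gstm2, a glutathione transferase, differed by 4.10 (SE 0.23).

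Few vitamin D genes passed the filter. Of 16 genes on the array 6 passed the filter, 1 through the deficient columns alone, and 1 was higher and 3 were lower, with a median difference of -0.61. The higher gene was Rxrb, a retinoid X receptor that pairs with the vitamin D receptor, at 0.50 (SE 0.18). Its call was lost with 75th percentile centring (limma adjusted p = 0.116), quantile normalization (0.13), no floor (0.0504) and without normal diet column 3 (0.0992), and the first 3 of those left 0 higher and 3 lower. Vdr, the vitamin D receptor, read 0.55, 0.17, 0.93 and 0.17 in the normal diet columns, inside the range of 0.17 to 2.48 in the deficient columns, and was not called (difference -0.52 (SE 0.30), limma adjusted p = 0.163). Calb1, a calcium-binding protein, was at least 5.55-fold lower by its brightest probe, and another probe differed by only -0.71. Cyp24a1, Cyp27b1 and Gc, which degrade, activate and carry vitamin D, did not pass the filter.

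**Figure D4:**
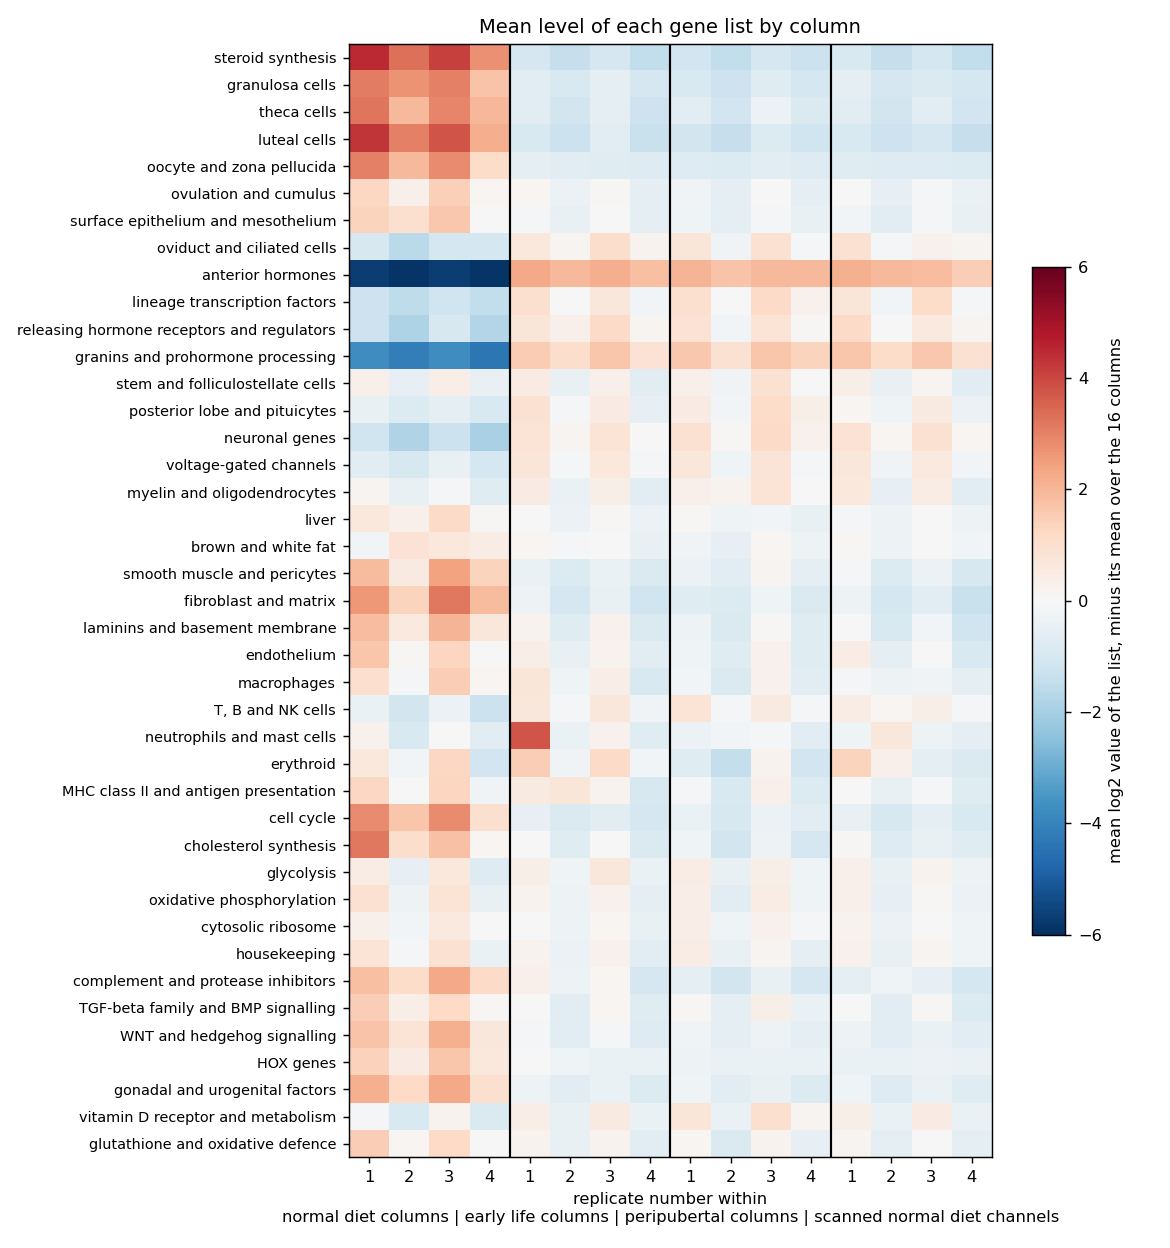
Mean log2 value of each gene list in 16 columns, less the mean of the list over those columns, as colour from -6 to 6, for the 4 normal diet, 4 early life and 4 peripubertal columns and the 4 scanned normal diet channels. The normal diet columns are high in steroid synthesis, with a mean level of 5.26 to 7.03 against 1.07 to 1.55 in the deficient columns and 1.06 to 1.65 in the scanned channels.

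The normal diet columns also differed among themselves. Columns 1 and 2, which the labels place on 1 array, were set against columns 3 and 4 within each dye, as a description with no test. The median of this difference over all genes was 0.09, and 5711 of 15393 genes were higher in columns 1 and 2 in both dyes and 1722 lower. Cholesterol synthesis genes were higher in columns 1 and 2 in both dyes for 21 of 21 members, with a median of 1.06. Idi1, which isomerises isopentenyl diphosphate, read 6.76 and 4.20 in the Cy3 columns 1 and 3, and 4.15 and 3.14 in the Cy5 columns 2 and 4. Luteal genes were higher in columns 1 and 2 for 12 of 15 and oocyte genes for 23 of 28. Fibroblast genes were lower in columns 1 and 2 in both dyes for 13 of 17 and smooth muscle genes for 8 of 10. Animal and array change together here and cannot be told apart. The pairing into arrays rests on the labels alone, since these columns equalled no scanned channel.

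**Figure D5:**
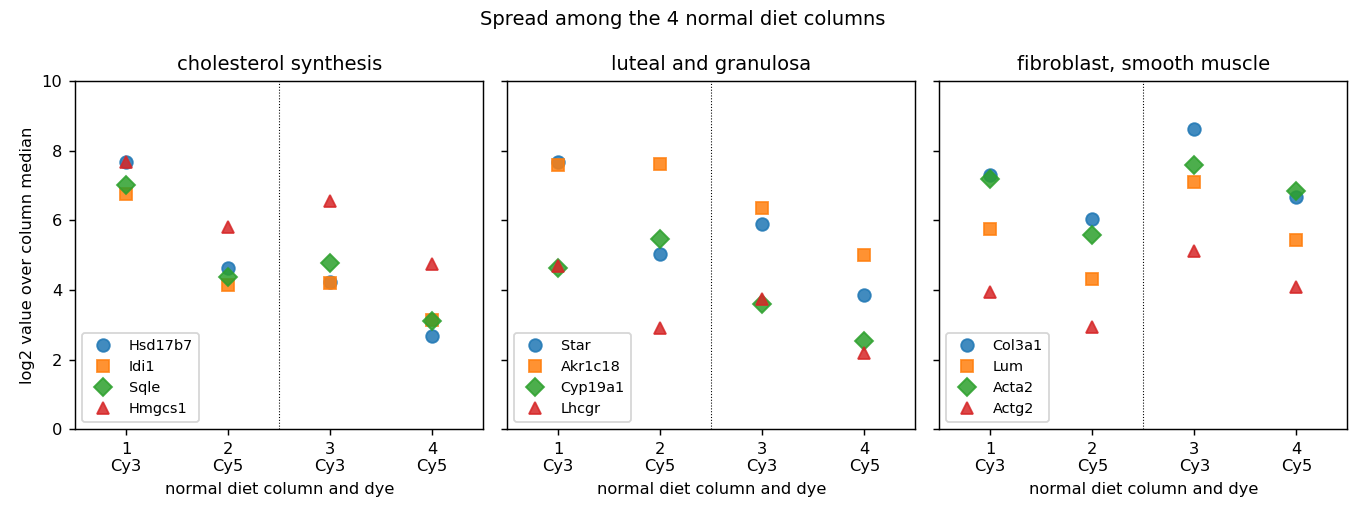
Log2 value over the column median (vertical axis) of 12 genes in normal diet columns 1 to 4 (horizontal axis). Within each dye, Idi1 and Hsd17b7 were higher in columns 1 and 2, and Col3a1, Lum, Acta2 and Actg2 were higher in columns 3 and 4.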

How the data were processed

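Per the labels and file headers, RNA of 12 mice was hybridised in 2 colours and scanned with Agilent Feature Extraction, named in the submitters' processing notes. The deposited values are log2 spot signal less local background, relative to the column median. The authors' scanner files, as deposited, hold spot and local background intensity, and quality marks of 0 or 1 that are used as other information. In the 8 deficient columns, a value was missing where the median signal did not exceed 2 times local background. This differs from what the design assumed, which was a difference of 0 or below. Missing values were set to a floor of 0.17, the highest 5th percentile of well-measured spots over the deficient columns, except 30 whose scanned difference lay above it, which stayed missing.

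Rows were joined to 43020 spots that are no controls, covering 39429 probes. Of those, 27324 were named by accession, 3518 by symbol and 551 by synonym, and 8036 kept the name in the files. Each gene was read from its brightest probe by mean value. limma 3.58.1 in R 4.3.3 fitted 15393 genes with a dye term and the array as a random block (correlation 0.317). For the normal diet columns dye and array were taken from the labels and could not be checked against a scan. With no array block 4984 genes were higher and 3363 lower. In simulated data for this comparison, 200 of 15391 genes were changed, all with means well above the floor. Of changes of 1 log2 unit 53.1% were recovered and of changes of 2 98%, with 6 false calls among 158. The contrast itself called 47.2% of genes, many of them at the floor in 1 set, so these rates may not carry over to it. The number of arrays limits the precision.

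Named genes are the 15 largest differences each way that do not overlap between sets, 12 fixed genes, and up to 4 called members with the largest differences from each of 50 lists, and a few genes are not reported here. The members and lists were chosen with earlier results of these data known. Alternatives covered scaling, floor, filter, probe, dye, array and replicate terms, each deficient group alone and each column left out. Same-numbered columns deviated together at r of -0.037 to 0.306, so the numbers were not taken to pair them. Where nothing ties scans to the normal diet columns, their own arrays are not known here.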

Additional observations from a re-analysis of the deposited data

Results flagged for a closer look

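In 269 sets of 4 or 8 columns, taken over the named genes reported here, the highest or lowest column was tested for standing apart from the rest, and 18 did so. Chance gives about 1 in 20 such sets. In 8 of the 18 (Acsbg1, Chga, Eno2, Gata4, H1f8, Mgarp, Syt1 and Vcan) all other columns of the set were at the floor, so any value above it met the test and that rate does not apply. The sets of Sfrp4, Cnn1, Cldn5, Krt19, Hk2, S100b and Lama4 were partly at the floor, so the rate is uncertain there too. Column names are those of the deposited table. Each set held both dyes, and the flags followed dye. All high values but that of S100b lay in odd-numbered columns, which are Cy3. The low value of Upk3b lay in a Cy5 column. How far dye accounts for the flags was not tested.

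Among pituitary and stromal genes in the deficient columns, Anxa1 stood at 4.35 in early life column 1, against 0.56 to 2.17 in the other 7, and S100b stood at 2.60 in peripubertal column 2, against 0.17 to 1.15. Early life column 1 also had the high mean level of the neutrophil and mast cell list, 5.30. Whether the Anxa1 value goes with it was not tested. Early life column 3 held Scg2 at 9.16, against 8.01 to 8.43, and Lama4 at 3.09, against 0.17 to 1.42. It also held Sfrp4 at 2.99, against 0.17 to 0.59, Krt19 at 0.47 and Acsbg1 at 0.25. Peripubertal column 3 held Cldn5 at 1.80, against 0.17 to 0.40, Cnn1 at 0.88, H1f8 at 0.70, Mgarp at 0.38, Gata4 at 0.20 and Vcan at 0.19. Peripubertal column 1 held Hk2 at 0.33.

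In the normal diet columns, Upk3b, a uroplakin of mesothelium, was low in column 4 at 1.78, against 3.20 to 3.40 in the other 3. Column 3 alone left the floor for Eno2 at 0.82, Syt1 at 0.51 and Chga at 0.41.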

How the results depend on the processing

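The counts of 4362 higher and 2905 lower genes stayed within 1.5 times under other scalings, floors, filters, probe rules, dye and array terms, under each deficient group alone and under a replicate block (4740 and 3185). Leaving out 1 column gave 3312 to 4754 higher and 2584 to 3060 lower, and against the scanned normal diet channels 4412 to 6214 and 2540 to 3756. With a replicate block that second comparison gave 4283 and 2714. An alternative chosen after seeing the data put the scanned normal diet channels in place of the normal diet columns and gave 0 higher and 0 lower genes in limma, with 505 at an unadjusted p under 0.05. Others added then were a floor per column (4422 and 3421) and leaving out spots marked as outliers (3556 and 2065 of 11825 tested). No named gene changed direction with its call. Of 172 named genes, 14 changed to not called with a floor 1 log2 unit higher, 7 with 75th percentile centring and 6 with quantile normalization, or 6 and 5 where the same probes were kept (added after seeing the data; 3654 and 3865 genes, and 3770 and 3899), and 163 kept their call whichever column was left out. Those that lost it included Cd4, Cd79b, H2-D1, H2-Eb1, Psmb8, Pvalb, Rpl10a and Rxrb, and all of these but Cd4 did so without normal diet column 3. The causes were not tested. Genes near the floor are limited by signal over background, and no result separates tissue source from diet or hybridisation.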

Other observations

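Genes that share the start of their symbol were counted for 80 such families with at least 15 tested genes, as a description with no test of the family. Over all genes 28.3% were higher and 18.9% lower, and with 75th percentile centring 3653 of 15389 were higher and 3867 lower. Among mitochondrial ribosome genes of the large subunit (Mrpl), 26 of 49 were higher and none lower, with a median difference of 0.50. Among those of the small subunit (Mrps), 14 of 29 were higher and 1 lower, with a median difference of 0.52. With 75th percentile centring those counts of higher and lower genes became 18 and 1 for Mrpl and 11 and 2 for Mrps. Genes of the cytosolic large subunit (Rpl) stood nearer equality, where 3 of 55 were higher and 1 lower, with a median difference of 0.07, and the centring gave 1 and 2. Among nucleoporin genes (Nup), 8 of 18 were higher and none lower, with a median difference of 0.52, and 8 and 0 with the centring. Among collagen genes (Col), 17 of 28 were higher and 1 lower, with a median difference of 1.43, and 16 and 1 with the centring.

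In the next 3 families more genes were called lower than higher, where over all genes 28.3% were higher and 18.9% lower. Among orphan receptor genes (Gpr), 1 of 22 were higher and 11 lower, with a median difference of -0.65, and 5 of them passed the filter through the deficient columns alone. Among genes named Sec, many of them of the secretory pathway, 0 of 22 were higher and 9 lower, with a median difference of -0.43. Among genes named Ap, many of them adaptor subunits of vesicle coats, 2 of 27 were higher and 11 lower, with a median difference of -0.44. The centring gave 1 and 13, 0 and 11 and 2 and 14, and over all genes 3653 higher and 3867 lower of 15389. Among F-box genes with WD repeats (Fbxw), 12 of 21 were higher and 1 lower, with a median difference of 1.38, and 11 passed the filter through the normal diet columns alone. Fbxw genes lie in a family of close copies, so their probes may not be specific.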
